A study of Danio rerio with 8 samples.

Results

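The unperturbed adult zebrafish ventricle was described from the libraries of 1 group, the offspring of uninjured fathers crossed with uninjured mothers. These were 4 of the 8 libraries of the series, chosen by their labels alone, and they are called libraries 1, 3, 4 and 5 after the replicate numbers in the labels. Each library pooled the ventricles of 4 sibling fish, 16 fish in all. The atrium and the bulbus arteriosus (the elastic outflow chamber of the fish heart) had been cut away, and each ventricle had been opened to let red blood cells escape. Library preparation started from 1 ng of RNA, with 2 rounds of amplification, and single reads of 60 bases were made. Strain, age and sex are not given in the sources used here, nor is it stated whether the pools had different fathers, so the spread reported below is that between pools and may be in part technical.

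The zebrafish ventricle has a compact outer wall and a spongy inner wall of heart muscle, lined by endocardium and covered by epicardium. Its muscle cells contract through thick filaments of myosin and thin filaments of actin, with troponin and tropomyosin as the calcium switch, and they draw most of their energy from mitochondria. An ancestor of the teleosts, the fish group that includes zebrafish, doubled its genome. Many zebrafish genes therefore have a pair of copies whose symbols end in a and b, and such copies can be used in different tissues.

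The table held 32520 genes. At least 1 read was counted for 21692 of them in the 4 libraries together and for 16218 in each of the 4, while 10828 had 0 counts in all 4. Totals were 13465112, 12450251, 14736121 and 13769659 counts in libraries 1, 3, 4 and 5. A count of 0 leaves room for up to 3 counts, which is 0.204 to 0.241 CPM (counts scaled to a library total of 1000000) depending on the library, and this limit covers counting error only. Libraries 4 and 5 stood farthest apart: 1118 of 5951 genes with a mean of at least 10 CPM (18.8%) differed more than 2-fold between them, against 196 (3.29%) between libraries 1 and 3. A first principal component held 69.4% of the variance of log2 values, with library 4 at 33.7, library 3 at 4.30, library 1 at -7.28 and library 5 at -30.8. The counts of every pair of libraries differed by more than counting noise, with a chi-square of 18.5 to 85.7 per degree of freedom, so all 4 were kept as separate samples.

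Abundance is given on 2 scales. CPM is the share of reads that a gene takes, and grows with the length of its transcript. TPM, the transcript share scaled the same way, first divides the counts by the summed exonic length of the gene, and is the scale on which levels of different genes are compared here. By CPM, 30.5% ± 0.947 (SD, n = 4) of all counts fell on the 10 leading genes, and 44.8 ± 3.30 genes held 50% of the counts. By TPM, 19.3 ± 0.957 genes were enough for 50%. At the other end, 11730 ± 344 genes reached 1 TPM, 696 ± 9.63 reached 100 TPM and 107 ± 3.59 reached 1000 TPM. Library 5 had 11214 genes at 1 TPM, and libraries 1, 3 and 4 had 11902, 11904 and 11899. When all libraries were thinned to the smallest total the numbers were 11887, 11904, 11930 and 11248 for libraries 1, 3, 4 and 5, so library 5 remained the lowest at equal depth.

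**Figure D1:**
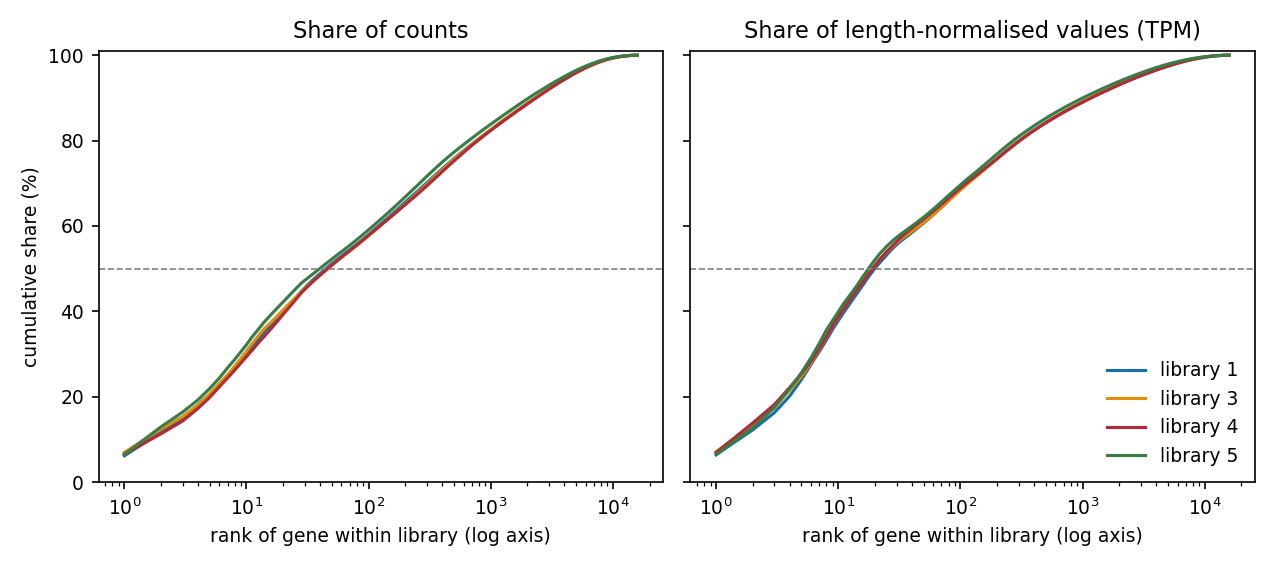
Cumulative share (percent, vertical axis) of counts (left) and of TPM (right) held by genes ranked from most to least abundant (log axis), 1 line per library; the dashed line marks 50%. The lines of the 4 libraries lie close together, crossing 50% at 40 to 47 genes for counts and at 18 to 20 genes for TPM, with library 5 crossing first.

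The mitochondrial genome was the largest single source of reads. Its 37 genes took 21.3% ± 1.23 of the counts (19.7% in library 1 to 22.7% in library 5) and 37.8% of the TPM (35.7% to 39.2%), and the 13 protein genes alone took 34.5% of the TPM. The 37 genes supplied 10 of the 20 highest genes by CPM and 13 of the 20 highest by TPM. Among these were ENSDARG00000080337 by CPM and ENSDARG00000081369 by TPM, both without a symbol and described below. MT-CO1, which encodes the catalytic subunit of cytochrome c oxidase, was first on both scales by the mean over the libraries. It had 62266, 70247, 66289 and 65043 CPM in libraries 1, 3, 4 and 5. In library 5 the nuclear myosin gene MYH7 was above it by CPM, at 65270. In library 4 MT-CO2 was above it by TPM, at 69844 against 69539. MT-CO2 and MT-CO3, the other core subunits of cytochrome c oxidase, averaged 63209 ± 4920 and 42303 ± 3409 TPM, and MT-ATP6 of the ATP synthase 41576 ± 2038 TPM. MT-CYB of complex III was at 28629 ± 3431 TPM and mt-atp8, a short ATP synthase gene, at 20292 ± 1319 TPM. The 7 NADH dehydrogenase subunits of complex I ranged from 6185 ± 397 TPM for MT-ND5 to 18808 ± 1031 TPM for MT-ND1. The mitochondrial genes without a symbol include 1 of 1683 bases at 7406 ± 1392 TPM (ENSDARG00000080337) and 1 of 71 bases at 13288 ± 805 TPM (ENSDARG00000081369). The TPM of genes about as short as a read, among them 22 mitochondrial genes of at most 77 bases with 2.21% of the TPM together, cannot be set against those of longer genes.

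Nuclear genes of the respiratory chain were also abundant, and their sum varied little. The 95 genes of the nuclear oxidative phosphorylation list summed to 62923, 62630, 63305 and 63352 TPM in libraries 1, 3, 4 and 5, and 84 of them reached 100 TPM. This sum varied less between libraries than that of any other list with more than 1% of the TPM, with an SD of 341 TPM around 63053. Single members did not stay level in TMM-scaled CPM. Of the 91 with at least 1 CPM, 75 were highest in library 5, against 32.3% of all genes. Lowest in library 1 were 51 of the 91, against 18.1% of all genes with at least 10 CPM. The ATP synthase beta subunit gene atp5f1b led at 3978 ± 1509 TPM, followed by atp5mc3b at 3283 ± 232, cox4i1 of complex IV at 2648 ± 218 and ATP5F1A at 2644 ± 1257 TPM. cycsa, ndufb4 and ndufa4l2b were at 0 in all 4 libraries. The nuclear gene with the highest mean TPM was slc25a5 (GRCz11 chromosome 14, 32881625 to 32884138), which encodes an adenine nucleotide translocase, the carrier that exchanges ATP for ADP across the inner mitochondrial membrane. It had 36021, 32640, 29784 and 37432 TPM in libraries 1, 3, 4 and 5, which was 99.997% of its family. It was not first among nuclear genes in every library, since myl7 was above it in libraries 1 and 4 and mb in library 4. Its relatives slc25a4 and slc25a6 averaged 0.859 and 0.0739 TPM, both of which rest on a few reads.

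Genes of both fatty acid and sugar use were abundant. The 31 genes of fatty acid oxidation summed to 12020 ± 589 TPM, led by acadvl (very long chain acyl-CoA dehydrogenase) at 3532 ± 346, the heart-type fatty acid binding protein gene fabp3 at 2808 ± 197, fabp4a at 1074 ± 178 and acadm at 889 ± 46.6 TPM. The 30 genes of glycolysis summed to 20715 ± 1342 TPM, with gapdh at 5354 ± 508, aldoaa at 5045 ± 290, aldoab at 1927 ± 284 and the lactate dehydrogenase gene ldhba at 1655 ± 299 TPM. ldhba stood above ldha in every library, by 2.22-fold on average (log2 ratio 1.15 ± 0.27, SD, n = 4). slc2a1b carried 91.8% of the summed TPM of the 6 glucose transporter genes in the list. Myoglobin (mb), the oxygen store of muscle, was at 25550, 25699, 32126 and 13270 TPM in libraries 1, 3, 4 and 5, so that library 5 held less than any of the others and library 4 the most. nme2b.2, of the nucleoside diphosphate kinase family, reached 12442 ± 1823 TPM, and the elongation factor gene eef1a1l1 2132 ± 413 TPM.

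The order of genes depended on the scale. Of the 20 highest genes by CPM, 14 were also among the 20 highest by TPM, and 64 of the 100 highest were shared. The gene named MYH7 on chromosome 2 (ENSDARG00000079782, 24274293 to 24289726), a ventricular type myosin heavy chain, was second by mean CPM and 14th by mean TPM. It had 55318, 54562, 47673 and 65270 CPM in libraries 1, 3, 4 and 5. gapdh, with an exonic length of 4973 bases, moved from rank 10 by CPM to rank 25 by TPM. The 2 titin genes on chromosome 9 also lost ranks: their exonic lengths of 98586 and 88557 bases gave them ranks 23 and 28 by CPM (6180 ± 378 and 4724 ± 248 CPM) but ranks 695 and 788 by TPM (99.95 ± 5.16 and 85.1 ± 3.63 TPM). Titin is the giant protein that acts as a spring along the sarcomere, and the ratio of its 2 genes hardly varied, with a log2 ratio of 0.23 ± 0.03 over the 4 libraries. Short genes moved the other way: cmlc1, an essential myosin light chain gene of 796 bases, was 11th by CPM and 7th by TPM.

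Some contractile families were carried almost wholly by 1 member and others were shared. The leading member held over 96% of the summed TPM in the myosin heavy chain, troponin T, troponin C and tropomyosin families, but 72.4% in troponin I, 66.6% in the muscle actins, 54.0% in the titins and 50.5% in the myosin light chains. Of the cardiac myosin heavy chains, MYH7 on chromosome 2 had 12874, 12499, 11175 and 14570 TPM in libraries 1, 3, 4 and 5, or 96.2% ± 0.623 of its family. Its neighbour on the same chromosome, named MYH6 (24252987 to 24270062), averaged 126 ± 41.5 TPM. Neither capital symbol could be matched to 1 zebrafish symbol, so the name MYH6 does not mark an atrial gene. myh7bb averaged 168 ± 61.7, myh7ba 165 ± 32.4 and the atrial heavy chain gene myh6 50.4 ± 17.6 TPM. The regulatory light chain gene myl7 (38684, 32154, 30089 and 31065 TPM) and the essential light chain gene cmlc1 (29620, 31873, 27850 and 35299 TPM) were close to equal. The order of myl7 and cmlc1 was not the same in all libraries, with myl7 higher in libraries 1, 3 and 4 and cmlc1 higher in library 5. myl4 averaged 1.05 ± 0.319 TPM.

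In the thin filament, troponin T, troponin C and tropomyosin each had 1 dominant gene, while troponin I and actin were shared. tnnt2a, the cardiac troponin T whose loss stops the embryonic zebrafish heart, had 10417, 8327, 8481 and 9120 TPM and 99.9% of its family, with tnnt1, tnnt2c, tnnt2b and tnnt2d at 0.725 to 2.19 TPM and tnnt3a at 0. Troponin I was shared by tnni1b at 1924 ± 176 TPM and tnni4a at 715 ± 49.2 TPM, a ratio of 2.69-fold that kept to between 2.55 and 2.92 in the 4 libraries. Troponin C came from tnnc1a at 3624 ± 371 TPM, with tnnc1b at 61.1, 153, 75.8 and 69.9 TPM in libraries 1, 3, 4 and 5 and highest in library 3. Of the tropomyosins tpm4a held 96.5% ± 0.186 at 4912 ± 305 TPM, and tpm2, tpm3, tpm1 and tpm4b followed at 148, 23.8, 3.39 and 1.76 TPM. Actin was the least stable of these families. actc1a, a cardiac type alpha actin, had 5834, 4539, 8608 and 3403 TPM and acta1b, a skeletal type alpha actin, 2783, 2231, 3093 and 1938 TPM, both highest in library 4 and lowest in library 5. actc1a exceeded acta1b by 2.14-fold on average, and its log2 ratio lay between 0.81 and 1.48 in the 4 libraries.

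**Figure D2:**
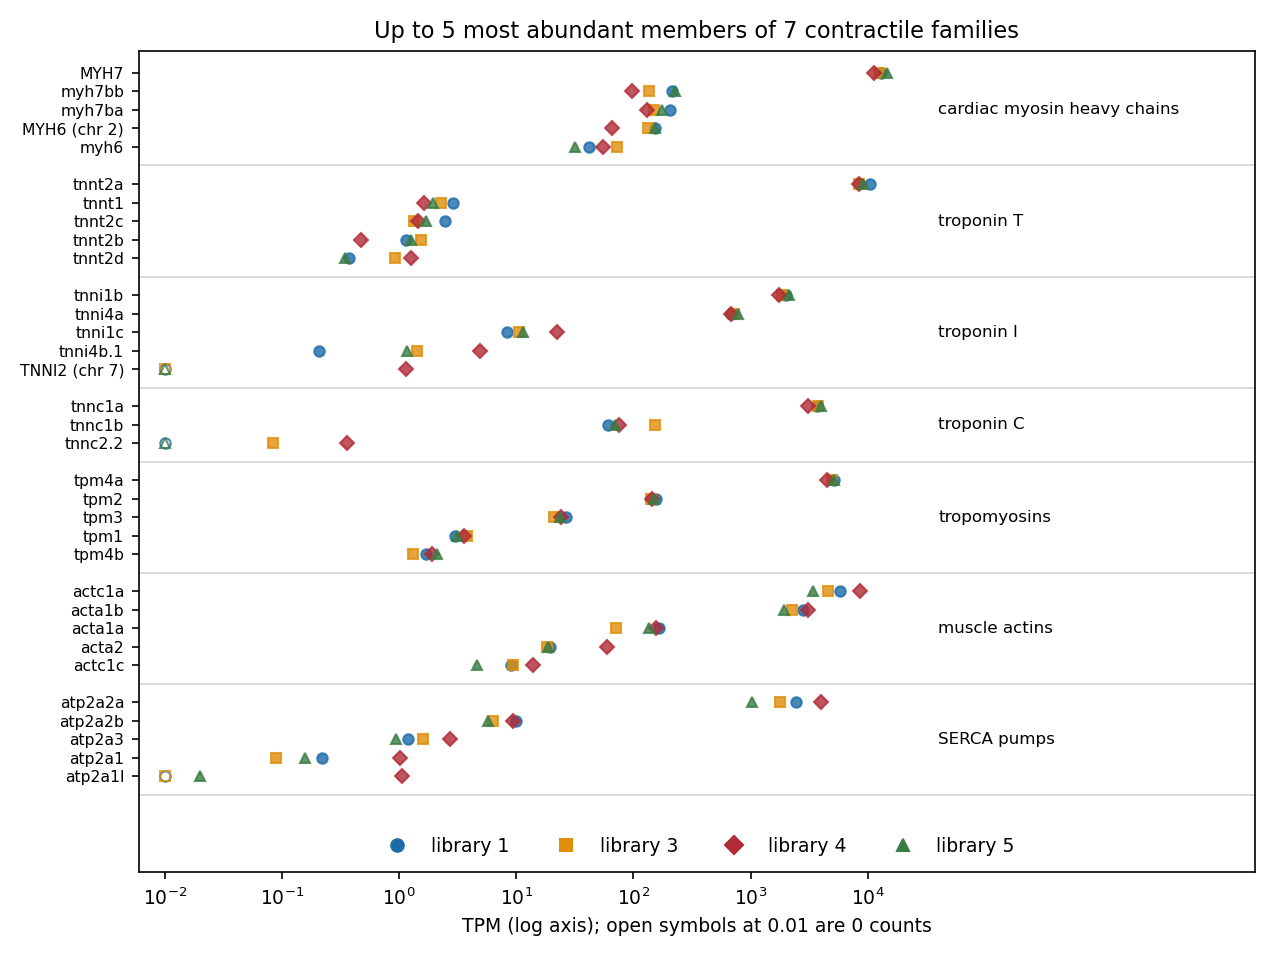
TPM (log axis) of up to 5 most abundant members of 7 contractile gene families, 1 symbol per library; open symbols at the left edge mark 0 counts. In the troponin T family tnnt2a lies between 8327 and 10417 TPM in every library and all other members shown are under 3 TPM.

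Calcium handling showed one dominant pump and one dominant exchanger. atp2a2a, the SERCA pump that returns calcium to the sarcoplasmic reticulum, had 2413, 1771, 3960 and 1027 TPM in libraries 1, 3, 4 and 5 and 99.5% ± 0.130 of the SERCA transcripts. It varied more than its inhibitor phospholamban, pln1, which had 2487, 2199, 2141 and 2587 TPM. The fold of pln1 over atp2a2a therefore ran from 0.541 in library 4 to 2.52 in library 5, and its log2 mean of 0.20 was within its SD of 0.91. This ratio was chosen after its values were seen. The sodium-calcium exchanger slc8a1a was at 495 ± 32.3 TPM with 99.9% of its family, and slc8a2b and slc8a4a were at 0. casq2, the calcium store of the reticulum, averaged 738 ± 72.1 TPM. The release channel ryr2b was at 19.4 ± 7.32 TPM, 2.59-fold over ryr3. The Na,K-ATPase had a pair of catalytic subunits whose order changed: atp1a1a.1 was above atp1a3b in libraries 1, 3 and 5 and below it in library 4, where they had 460 and 606 TPM. Among gap junction genes gja5a led at 78.5 ± 18.4 TPM and gja5b followed at 46.5 ± 7.85, while gja2, gja3 and gja10b were at 0.

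Natriuretic peptides, the hormones that heart muscle secretes under stretch, came almost wholly from nppa at 1198, 1651, 1285 and 1189 TPM. Its neighbour nppb had 70.8, 77.01, 73.2 and 244 TPM, so that library 5 was 3 times or more above each of the others. The nppa share of the family was 91.9% ± 5.96, and nppal and nppcl2 were at 0. Cardiac transcription factors were led by hand2 at 228, 105, 74.2 and 320 TPM and gata5 at 209, 159, 110 and 208 TPM, both lowest in library 4. Most of their list had another order in TMM-scaled CPM. Of its 18 members with at least 1 CPM, 12 were highest in library 4, against 34.6% of all genes. Lowest in library 5 were 11, against 33.2% of all genes, and 3 were lowest in library 4, against 31.9%. gata5 was 3.81-fold over gata4 (44.1 ± 7.93 TPM) on average and gata6 averaged 18.2 ± 3.63 TPM. prox1a was at 44.2 ± 7.16 TPM. irx1b, isl1a and isl1b were at 0.

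Other families split in the same way. desma carried 98.4% of the desmin and vimentin family at 900 ± 285 TPM, and vim, an intermediate filament of non-muscle cells, had 13.8 ± 3.56 TPM. eno3, the muscle enolase, was at 1166 ± 124 TPM and 5.73-fold over eno1a. The creatine kinases were shared more evenly: ckma held 34.3% ± 5.05, with ckma at 569 ± 207, mitochondrial ckmt2b at 370 ± 7.25, ckbb at 347 ± 139, ckmt2a at 227 ± 23.3 and ckmb at 76.5 ± 33.4 TPM. The 2 mitochondrial forms varied little, while ckma and ckbb were highest in library 4 and lowest in library 5. All 6 calmodulin genes were detected, with calm2b at 510 ± 45.0 TPM and 64.6% of the sum. Of the small heat shock genes listed, which encode chaperones, hspb1 was at 1743 ± 74.7, hspb7 at 1667 ± 199 and hspb6 at 623 ± 183 TPM, with cryaa, cryaba and hspb15 at 0. hspb9l, which is not in the list and was chosen after its values were seen, was higher at 1960 ± 358 TPM. All 3 lamins over 1 TPM were low, with lmna at 11.3 ± 1.44 and lmnb1 at 9.51 ± 2.78 TPM.

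The a/b copies were then compared over the whole table. The symbols gave 2854 pairs, of which 2106 had enough counts to test. More than 2-fold apart by limma's treat test, at an adjusted p under 0.05, were 1414 pairs, which is 67.1% of those tested. The a copy was higher in 783 (37.2%) and the b copy in 631 (30%). The median difference was 7.04-fold, 935 pairs (44.4%) were at least 10-fold apart and 268 (12.7%) lay within 1.5-fold. A copy was at 0 in all 4 libraries in 213 tested pairs, so their folds rest on the 0.5 counts added. In 288 pairs the order differed between libraries. Of the 556 pairs whose higher copy reached 20 TPM, 439 were called (79.0%), with a median of 11.6-fold. The error of the length correction, which is shared by all libraries, is outside the spread that the test uses.

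The most unequal pairs were picked from the called pairs with a copy of at least 20 TPM, and they included several muscle genes. Being called was part of the choice. Their adjusted p by limma's treat test lay between 4.2e-08 and 1.1e-06. anxa2b, fabp4b, aldoca, cycsa and ppp1r3ca had no count in any library. For these pairs the tested ratio rests on the 0.5 counts added, and its spread is that of the higher copy alone. With 3 counts as the floor in each library, anxa2a (518 ± 50.9 TPM) was at least 1970-fold higher than its copy, fabp4a at least 1560-fold, aldocb at least 1529-fold, the cytochrome c gene cycsb (1657 ± 228 TPM) at least 1162-fold and ppp1r3cb at least 830-fold. These bounds cover counting error only, and not reads that map to several places. The other 5 pairs had a copy with few reads. tnni1a had 2 reads against 189566 of tnni1b, a ratio of 17920 per length with a 95% counting interval of 4961 to 148000. slc8a1b had 6 reads, mcama 5 and slc25a3a 6, against 70386, 40327 and 83643 of their copies. tnnt2b had 43 reads against 364431 of tnnt2a, a ratio of 8374 with an interval of 6217 to 11570.

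The 10 most equal pairs were picked for their small mean log2 ratio in these same libraries. That none was called more than 2-fold apart follows from this choice. eef1da and eef1db, of a translation elongation factor, had 108 ± 14.5 and 107 ± 9.57 TPM, with a log2 ratio of 0.01 ± 0.28. Their mean counts were 5316 and 1766 over exonic lengths of 5750 and 1946 bases, so their equality rests on the division by length. The copies of gcdh (4170 and 2190 bases), myo1c (3823 and 6854) and ywhaq (1959 and 4237) also differed in length. The copies of capza1 (actin capping), hmgb1 (chromatin), myo1c, tmem30a, gcdh (glutaryl-CoA dehydrogenase), dsp (desmoplakin) and ywhaq (a 14-3-3 protein) had mean log2 ratios between -0.16 and 0.16. Among the 10 pairs, only the copies of gcdh and ywhaq kept the same order in every library. The tef pair, clock-output transcription factors, had the widest spread between libraries and was equal only on average. tefa over tefb had log2 ratios of -0.17, -0.03, -1.73 and 1.48 in libraries 1, 3, 4 and 5, so that the b copy led in library 4 and the a copy in library 5.

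The label of the tissue was set against marker lists of 21 cell types. In bulk RNA, fewer cells of a type and less RNA per cell cannot be told apart. The 21 ventricular heart muscle genes summed to 137370, 128580, 133310 and 119660 TPM, 12.97% of the TPM and 17.0% of the counts, and 20 of the 21 reached 1 TPM in every library. Its highest members were myl7, cmlc1 and mb at 32998, 31161 and 24161 TPM on average, which are not particular to ventricular muscle. The 11 atrial genes summed to 114 to 185 TPM, with myh6 at 50.4, bmp10 at 50.3, tbx5a at 20.9 and smtnl1 at 8.59 TPM. The ventricular and atrial sums alone therefore do not tell the chambers apart. MYH7 on chromosome 2 was 264-fold over myh6 on average, a ratio chosen after its values were seen, with 172-fold and 455-fold as the lowest and highest library. The 7 bulbus genes summed to 74.0 to 76.8 TPM, led by mfap5 at 45.2, cnn1b at 18.0, mylka at 7.78 and fbln5 at 2.62 TPM. elnb, the elastin of the bulbus, averaged 0.622 TPM; it was named after its value was seen.

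**Figure D3:**
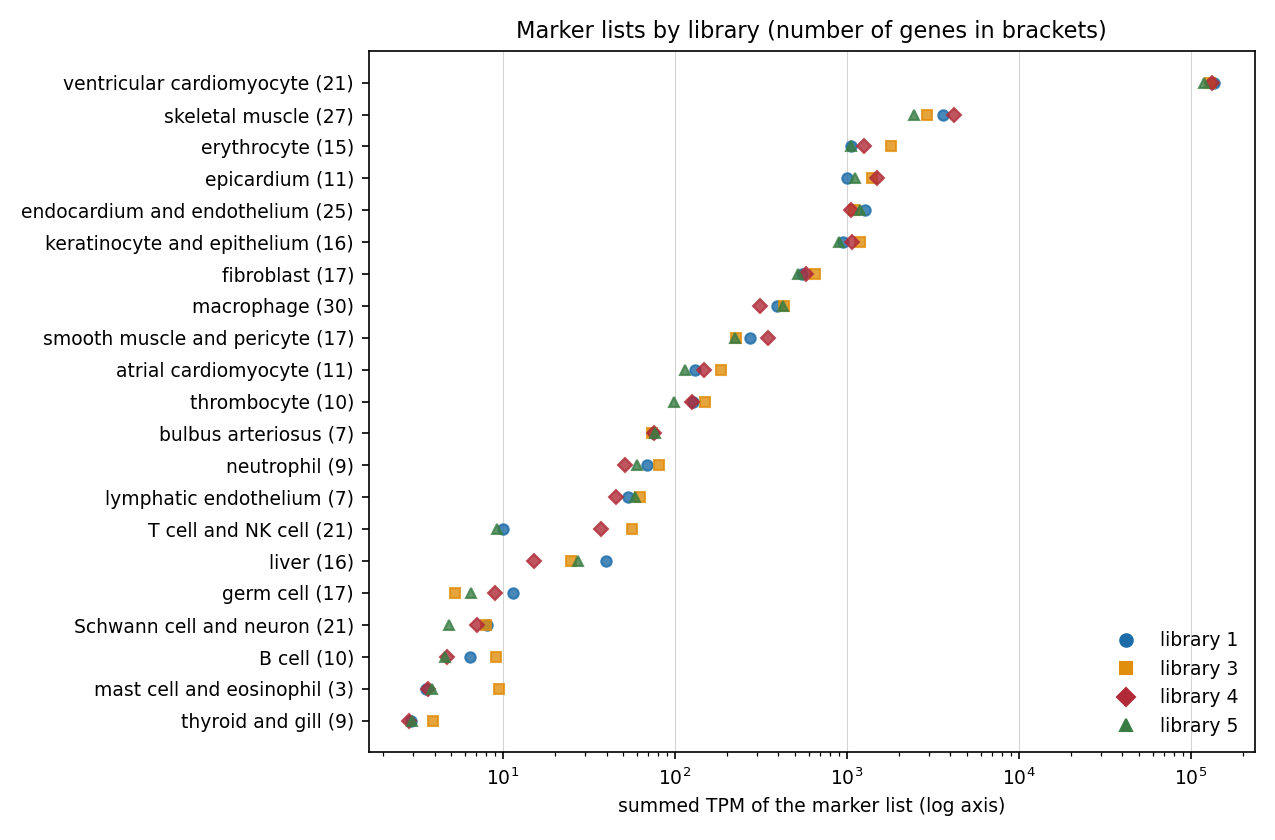
Summed TPM (log axis) of 21 cell type marker lists, 1 symbol per library, with the number of genes in brackets. The ventricular heart muscle list lies at 119660 to 137370 TPM, and 14 lists lie above 40 TPM in every library.

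Genes that mark the lining, covering and supporting cells were detected at lower sums. The 25 endocardial and endothelial genes summed to 1268, 1105, 1053 and 1194 TPM, and 21 of them reached 1 TPM in every library. aqp8a.1, a water channel gene, gave 702 ± 153 TPM of this, the vascular cadherin cdh5 92.6 ± 9.82, the VEGF receptor kdrl 65.6 ± 19.6 and egfl7 59.2 ± 14.2 TPM. kdrl stood 2.89-fold over kdr. The 11 epicardial genes summed to 998 to 1487 TPM, but krt94, a keratin, made up 935 ± 242 and podxl, which endothelium also expresses, 258 ± 18.9; postnb and aldh1a2 (retinoic acid synthesis) had 19.2 and 18.2 TPM. tcf21, named after its values were seen, averaged 6.39 ± 4.13 TPM. The 17 fibroblast genes summed to 522 to 655 TPM, led by sparc at 102, dcn at 96.3, mmp2 at 73.2 and fn1b at 71.9 TPM. The 17 smooth muscle and pericyte genes summed to 223 to 346 TPM, led by abcc9 at 77.4, a channel subunit that heart muscle also expresses, tagln at 56.9, TAGLN on chromosome 5 at 44.9 and acta2 at 29.0 TPM, with cnn1a at 0.

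Genes of blood cells were detected too. The erythrocyte list summed to 1062, 1796, 1250 and 1058 TPM, highest in library 3, with the alpha globin hbaa1 at 692, 1308, 878 and 767 TPM in libraries 1, 3, 4 and 5. tspo, hbaa2 and sptb followed at 115, 67.1 and 64.3 TPM, and the embryonic globins hbae1.1, hbae3, hbae5 and hbbe3 were at 0. Beside hbaa1 on chromosome 3 lie a gene named HBE1, with 713, 1368, 791 and 675 TPM in libraries 1, 3, 4 and 5, and si:ch211-5k11.8, with 917, 1720, 903 and 772 TPM. Both were outside the list, so its sum leaves them out, and both were chosen after their values were seen. All 3 were highest in library 3. Single globin genes are uncertain because near-identical copies share reads. Macrophage genes summed to 312 to 432 TPM, most of it from the antigen presentation genes cd74a at 200 ± 31.8 and cd74b at 91.2 ± 18.2, with lgals3b at 35.3 and ctss2.1 at 7.88 TPM. Of the 30 macrophage genes 10 averaged under 1 TPM. The neutrophil list summed to 51.4 to 80.4 TPM, led by srgn at 40.7, nccrp1 at 14.1, npsn at 6.62 and ncf1 at 2.17 TPM, while lyz was at 0. Of its 9 members 5 averaged under 1 TPM. The thrombocyte list summed to 99.4 to 149 TPM, of which fn1b, also a member of the fibroblast list, gave 71.9; next came apln at 21.3, thbs1b at 8.58 and gp9 at 6.98 TPM.

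Several lists of other cell types and tissues had low sums. B cell genes summed to 4.60 to 9.10 TPM, Schwann cell and nerve genes to 4.87 to 8.12, germ cell genes to 5.27 to 11.4 and thyroid and gill genes to 2.84 to 3.91 TPM. Liver genes summed to 15.2 to 39.5 TPM, of which transferrin (tfa) gave 19.0 TPM. The T and NK cell list had 10.0, 56.6, 37.3 and 9.24 TPM, but dusp2, a phosphatase induced by many stimuli, gave 1.41, 41.2, 31.2 and 0.278 of these, and cd8a, tcf7 and prf1.1 were at 0. The skeletal muscle list summed to 3301 ± 770 TPM through acta1b, ckma, acta1a and ckmb, which heart muscle shares; myhz1.2, tnnt3a and 2 TNNI2 genes on chromosome 25 were at 0. The keratinocyte list summed to 1033 ± 131 TPM through icn at 902 ± 113 and anxa1a at 118 ± 17.2, with krt4 at 6.72 and krt5 at 1.68 TPM. Cell cycle genes summed to 62.8 ± 7.79 TPM, of which pcna, the DNA polymerase clamp, gave 31.9 and rrm1 8.04 TPM.

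The spread between the 4 pools was moderate and uneven. The median biological coefficient of variation (BCV, the spread beyond counting error as edgeR estimates it) was 0.264. edgeR draws the value of each gene toward a trend over abundance, so BCV and the plain CV below are not the same measure. Among the 5951 genes with at least 10 CPM, the median CV of TMM-scaled CPM was 0.191, and 421 genes (7.07%) had a CV over 0.5. Library 4 held the highest value in 320 of these 421 (76.0%), against 34.6% of all genes with at least 1 CPM. Library 5 held the lowest in 277 (65.8%), against 33.2%. Without library 4 the count of genes with a CV over 0.5 was 191, without library 5 it was 348, and without library 1 or 3 it was 606 or 557. The CV was smaller for abundant genes, with a median of 0.293 at 1 to 10 CPM and of 0.128 over 1000 CPM.

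The 10 steadiest genes above 50 CPM all had a CV under 0.03. They were picked for their small spread in these same libraries, so their values are a description. The calpain inhibitor gene cast had 764, 745, 751 and 765 TMM-scaled CPM in libraries 1, 3, 4 and 5, and nexn, an actin-binding Z-disc protein gene, had 651, 664, 657 and 678. The others were tomm20b (mitochondrial import), mical2b, rad23b (DNA repair), anxa11a, prkar1aa (a protein kinase A regulatory subunit), sirt2 (a deacetylase), agpat3 and selenos. edgeR still gave cast a BCV of 0.218 and selenos a BCV of 0.223.

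Many of the genes that varied most for their abundance shared an order of libraries. In 18 of the 20 with the largest BCV over the trend, libraries 3 and 4 both lay above libraries 1 and 5. Over all 421 genes with a CV over 0.5 the number was 194 (46.1%), and over all genes with at least 10 CPM it was 17.7%. These genes were picked for their spread, so their values are a description. fkbp5, a cochaperone of the glucocorticoid receptor and a classic target of it (chromosome 6, 41096058 to 41117242), had 232, 1327, 2079 and 166 TMM-scaled CPM in libraries 1, 3, 4 and 5. klf9, another glucocorticoid-responsive gene, had 13.5, 120, 150 and 5.73, and ddit4, a stress-induced inhibitor of mTOR signalling, 17.3, 170, 104 and 6.10. All 3 were at least 5 times higher in libraries 3 and 4 than in libraries 1 and 5.

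Other genes among the 20 showed this order too. The clock repressor nr1d2a had 52.5, 355, 498 and 18.1 TMM-scaled CPM, and cited4a, a transcriptional coregulator, 164, 1139, 1190 and 75.5. pdk2b, which restrains pyruvate use by mitochondria, had 42.8, 124, 246 and 9.65, and irs2b, an insulin receptor substrate, 73.5, 249, 591 and 52.2. socs3a, a feedback inhibitor of cytokine signalling, had 94.5, 525, 483 and 45.9. The glutamine synthetase gene glulb, the transaminase gene gpt2, nr4a3, sbk3, midn, stk35, pptc7a and ivns1abpb had libraries 3 and 4 on top as well, and so did ssh2b and ly97.3, where library 4 stood far above the rest. psme4a (56.9, 50.3, 261 and 15.7) did not keep that order, and ptgr1.1 went its own way with 3.70, 5.62, 3.52 and 52.8, high in library 5 alone.

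**Figure D4:**
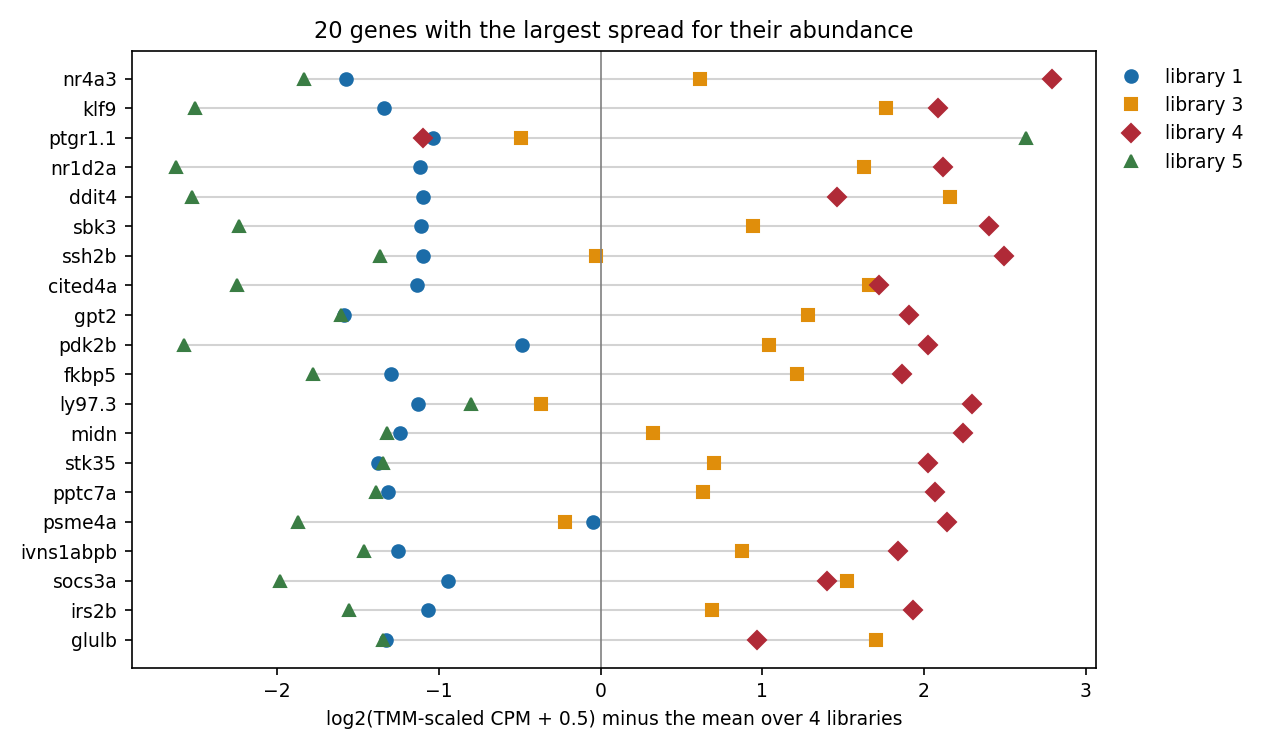
The 20 genes with the largest spread for their abundance, each drawn as log2 of TMM-scaled CPM (with 0.5 added) minus its mean over the 4 libraries. In 18 of the 20, libraries 3 and 4 lie right of libraries 1 and 5; ptgr1.1, at 52.8 in library 5 and at most 5.62 elsewhere, is drawn the other way.

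Lists of related genes were read against the share of all genes with a mean of at least 1 CPM. The lists were chosen with earlier results of these data known, so the shares here and below are a description. Of those 12740 genes 11.3% had a CV over 0.5, and in 20.2% libraries 3 and 4 both lay above libraries 1 and 5. In the list of glucocorticoid and FoxO targets, genes switched by stress hormone and by fasting, 15 of 25 members had a CV over 0.5 and 18 of 25 had libraries 3 and 4 on top. Its summed level was 882, 2199, 2560 and 583 TPM in libraries 1, 3, 4 and 5. Its highest members were fkbp5, txnipa (167 ± 88.9 TPM), pik3ip1 (162 ± 62.8) and pdk4 (123 ± 8.86). pdk4 also had libraries 3 and 4 on top, but by little, with 187, 209, 216 and 196 TMM-scaled CPM. trim63a and trim63b were at 0. Immediate early genes, which respond within minutes to a stimulus, had 13 of 24 members with a CV over 0.5 and 14 of 24 with libraries 3 and 4 on top. jun had 60.3, 181, 143 and 60.4 TMM-scaled CPM and dusp1 28.4, 111.1, 102 and 29.5. Clock genes had 12 of 30 and 13 of 30.

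The interferon response list summed to 242, 570, 550 and 156 TPM in libraries 1, 3, 4 and 5, a wider swing than that of the immediate early or clock sums. Of this, socs3a gave 82.5, 444, 392 and 35.4 TPM, while stat1a, the next highest member, kept to between 53.4 and 66.8 TPM, and 1 of 20 members had a CV over 0.5. In the other pathway lists a smaller share of members was variable than among glucocorticoid and FoxO targets, immediate early or clock genes. With a CV over 0.5 were 4 of 23 heat shock and chaperone genes, 4 of 25 calcium handling genes and 3 of 18 cardiac transcription factors. Sarcomere genes had 4 of 40, near the 11.3% of all genes. Nuclear oxidative phosphorylation genes had 0 of 91, fatty acid oxidation 0 of 29, glycolysis 0 of 29 and ribosomal proteins 0 of 76. Over all genes the share was 14.9% at 1 to 10 CPM, 7.4% at 100 to 1000 CPM and 1.87% over 1000 CPM. Ribosomal protein genes shared an order of libraries: 70 of 76 were highest in library 5 and 67 of 76 lowest in library 4, against 32.3% and 31.9% of all genes. In 64 of the 76, libraries 3 and 4 both lay below libraries 1 and 5, against 19.5% of all genes. Their sum was 58640, 53679, 47242 and 60772 TPM in libraries 1, 3, 4 and 5, led by rps7 at 2254 ± 311, rpl6 at 1938 ± 262, rps14 at 1858 ± 242 and rps20 at 1622 ± 165 TPM. Of the heat shock and chaperone genes 11 of 23 had that order, with a median log2 ratio of library 4 over library 5 of -0.53. Collagen and matrix genes had the opposite order in 18 of 32 members, with a median log2 ratio of 0.47, beside 0.02 for all genes. Among genes with at least 10 CPM that ratio went from -0.33 in the shortest to 0.45 in the longest, as described below.

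The contrast between libraries 4 and 5 moved with exonic length. Over 5 groups of equal size by length, the median log2 ratio of library 4 over library 5 was -0.33 in the shortest genes (up to 1663 bases), then -0.23, -0.12 and 0.13, and 0.45 in the longest (5407 bases or more). Across genes, which are not independent replicates, Pearson's r between this ratio and log2 length was 0.27. Library 3 over library 1 stayed between -0.08 and 0.02 over the same groups. The part of exonic length in the values of the lists above was not tested.

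**Figure D5:**
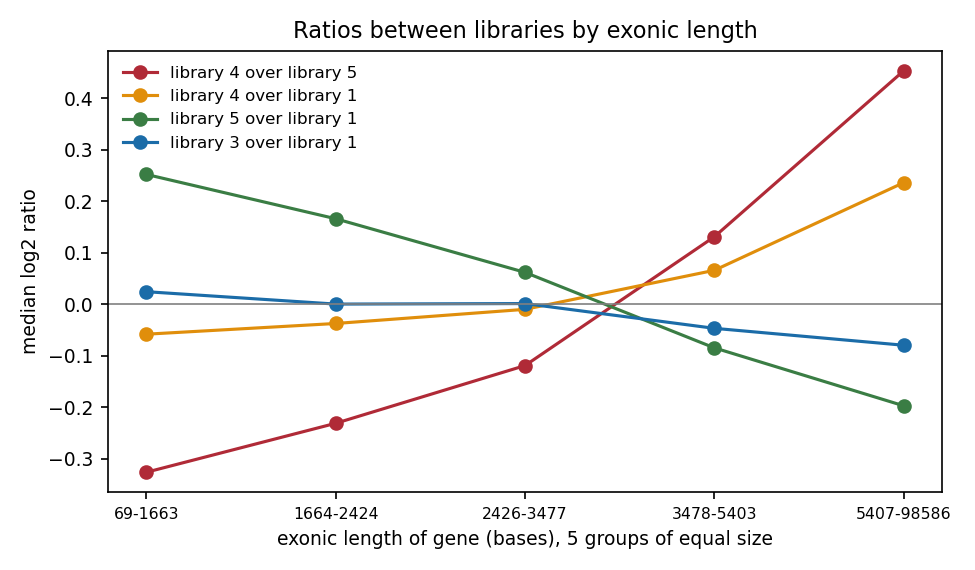
Median log2 ratio between libraries (vertical axis) in 5 groups of genes of equal size by exonic length, for the 5951 genes with at least 10 CPM. Library 4 over library 5 goes from -0.33 in the shortest to 0.45 in the longest genes, while library 3 over library 1 stays between -0.08 and 0.02.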

How the data were processed

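RNA of adult ventricles was measured by bulk RNA sequencing. The deposited values are raw read counts per gene. Per the file headers they came from featureCounts 2.0.3 on the Ensembl GRCz11 annotation, release 111, with strand option 0 and no option for reads that map to several places or overlap several genes. Near-identical and overlapping genes are therefore uncertain. The deposited column of other values, the exonic length per gene, came with the counts per the file headers. Per the submitters' processing notes, FastQC 0.11.9, MultiQC 1.12, STAR 2.7.10a, Subread 2.0.3, R 4.4.0 and DESeq2 1.44.0 were used. Reads were amplified without molecular identifiers, so intervals cover counting error only.

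From the counts of the 4 libraries, CPM (library total), TPM (exonic length) and TMM-scaled CPM were computed. BCV came from edgeR 4.0.16 (R 4.3.3) with an intercept only, filterByExpr and robust estimation. Pairs of a/b copies with a mean summed count of at least 10 were tested with treat in limma 3.58.1 at 2-fold on log2 ratios per length with 0.5 counts added, with trend and Benjamini-Hochberg adjustment over all 2106 pairs. Means are given ± SD over 4 libraries. The code was tested on simulated data. DESeq2 1.42.0 and Python 3 served for alternatives and tables.

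A table of gene names gave symbols to 29201 of 32520 genes (89.8%). Of 12580 capital symbols, 10939 were replaced by the zebrafish symbol that RefSeq lists on the same chromosome; others are printed in capitals. Members and gene lists were chosen with earlier results of these data known; of 980 list entries 891 were matched, and corrections to the lists were made after names were seen. Named genes were the 20 highest by CPM and by TPM, up to 5 members per family, 4 per cell type or pathway list, members at 0, the 20 most variable and 10 steadiest genes and the 10 most unequal and 10 most equal pairs; the text says where a gene was chosen otherwise. The other 4 libraries of the series were not analysed here.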

Additional observations from a re-analysis of the deposited data

Results flagged for a closer look

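Of 192 results examined over the 4 libraries, 17 (8.9%) had 1 library far from the other 3 by Dixon's criterion. Chance alone meets it in about 1 of 20 independent results. The results here overlap and include genes picked for their large or small spread, so the 8.9% cannot be compared with that rate. Library 5 accounted for the fewer genes at 1 TPM (11214, against 11899 to 11904 in the other 3) and for the smaller numbers of genes that hold 80% and 90% of the counts (662 and 2056) or of the TPM (272 and 1010). In library 5 mt-atp8 reached 22270 TPM, nppb 244 TPM (70.8 to 77.01 elsewhere) and ptgr1.1 52.8 TMM-scaled CPM. The log2 ratio of nppa over nppb was 2.29 there (4.08 to 4.42 elsewhere) and that of cox4i1 over cox4i1l 0.60 (0.27 to 0.32 elsewhere). In library 4 the highest values were 44.9 for ssh2b, 141 for ly97.3 and 261 TMM-scaled CPM for psme4a. In library 3 the mast cell and eosinophil list summed to 9.47 TPM (3.57 to 3.89 elsewhere), the thyroid and gill list to 3.91 TPM, and tnnc1b had 153 TPM (61.1 to 75.8 elsewhere). In library 1 lmna had 13.5 TPM (10.5 to 10.8 elsewhere).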

How the results depend on the processing

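No paired analysis was possible because no comparison between groups was made. The count of unequal a/b pairs lay between 972 and 1537 under all alternatives, but the number of tested pairs changed with the filter. It was 972 of 1453 (66.9%) with a summed mean of at least 100 counts. Without a filter beyond 1 count it was 1537 of 2702 (56.9%), beside 1414 of 2106 (67.1%) in the main setting. With each library left out it was 1342 to 1399 (63.6% to 66.7%). Every pair called in both the main setting and an alternative kept its direction. The median BCV was 0.264, and 0.233 to 0.307 with each library left out; it was 0.359 without a filter on low counts, and 0.264 to 0.273 with other scalings or DESeq2. Genes with a CV over 0.5 numbered 191 to 606 (3.26% to 10.3%) with each library left out. They were 1435 of 12740 (11.3%) with a minimum of 1 CPM and 115 of 1723 (6.67%) with a minimum of 50 CPM. The main setting had 421 of 5951 (7.07%). The cause of the change was not tested; fewer or more genes enter under other minima. Without mitochondrial genes the 10 most abundant genes took 25.6% of the counts, and 78.8 genes held 50% of the TPM; without division by length 44.8 genes did. The mitochondrial share of 21.3% of the counts became 37.8% of the TPM, and 35.1% of the TPM without genes under 200 bases, an alternative added after seeing the data. The number of genes at 1 TPM kept within 1.5 times under all alternatives. The log2 ratio of myl7 over cmlc1 was -0.0200 to 0.17 with each library left out, reversing without library 1. The other 29 family ratios kept their sign under every alternative. Without mitochondrial genes 33 of 35 list sums moved by more than their SD, and without division by length 29 of 36 did. Depth limits genes with few reads, where 0 allows up to 3 counts per library.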

Other observations

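Genes outside the lists were also abundant, and those named here were chosen after their values were seen. hsd11b2, whose enzyme inactivates cortisol, had 540, 980, 1194 and 390 TPM in libraries 1, 3, 4 and 5; 529 of the 5951 genes with at least 10 CPM shared its order of libraries from low to high. By comparison, the glucocorticoid receptor gene nr3c1 averaged 3.03 ± 0.891 TPM and the mineralocorticoid receptor gene nr3c2 0.312 TPM. f8, the gene of coagulation factor VIII, averaged 795 ± 236 TPM (chromosome 14, 1007169 to 1040736). tcap, a titin-binding protein gene of the Z-disc, had 127, 901, 673 and 97.3 TPM, with libraries 3 and 4 on top. serpinh1b, a collagen chaperone gene, had 8.52, 2.58, 1.39 and 11.7 TPM, with libraries 3 and 4 lowest. rpl26 and ndufb4 were listed at 0 and rpl9 at 0.0168 TPM, though 72 ribosomal protein genes reached 100 TPM. Chromosome 4 differed from the rest: 16.9% of its 2380 genes reached 1 TPM, against 38.2% on the other numbered chromosomes, and 48.2% had 0 counts in all libraries, against 32% elsewhere.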
